A study of Mus musculus with 4 samples.

Results

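Matrix metalloproteinases are zinc-dependent enzymes that cleave the extracellular matrix. The genes described here were 8 of the 32285 genes in the deposited tables, chosen by their symbols and not by a cut on their levels: Mmp2, Mmp3, Mmp9, Mmp10, Mmp12, Mmp13, Mmp14 and Mmp19. They were followed by single-cell RNA sequencing in 3846 cells from intervertebral discs of the mouse tail, where an annulus of cartilage-like inner and fibrous outer layers encloses the soft nucleus pulposus. All mice were wildtype C57BL/6 females aged 12 weeks. The injured group held discs at tail levels CC5/6 to CC9/10, punctured on both sides with a 30G needle and taken 7 days later. The control group held unpunctured discs of the same animals at levels CC12/13 to CC16/17, so injury and tail level cannot be told apart. Each group had 2 libraries, 1 in each of 2 rounds, and each library pooled discs of several mice. Per the labels, a group pooled 30 discs of 6 mice, and the cells were snap frozen and sorted by DAPI. The libraries are named control 1, injured 1, control 2 and injured 2 after their round.

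Most of these enzymes are made as inactive proenzymes, and a propeptide must be removed before they cut. Stromelysins (Mmp3 and Mmp10) cut proteoglycans and several collagens other than the fibrillar ones, and can activate procollagenases. Collagenase 3 (Mmp13) cuts the triple helix of type II collagen, the main fibrillar collagen of cartilage. Gelatinases (Mmp2 and Mmp9) cut denatured collagen, the membrane-anchored Mmp14 activates the Mmp2 proenzyme together with the inhibitor Timp2, Mmp12 is an elastase best known from macrophages, and Mmp19 is a secreted enzyme of broad specificity. In the disc, stromelysins and collagenases are known for their rise with degeneration and in response to interleukin 1 and tumour necrosis factor.

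The genes lay at 5 places in the mouse genome (mm10, GENCODE M21 annotation). Mmp13 (chromosome 9, 7272514 to 7283331), Mmp12 (chromosome 9, 7344381 to 7369499), Mmp3 (chromosome 9, 7445822 to 7455975) and Mmp10 (chromosome 9, 7502352 to 7510240) lay on the plus strand within 238 kb. The end of Mmp12 overlaps Mmp1b on the opposite strand, a gene with 1 UMI in all cells. Mmp2 lay on chromosome 8 (92827291 to 92853420), Mmp9 on chromosome 2 (164940780 to 164955850), Mmp14 on chromosome 14 (54431612 to 54445364) and Mmp19 on chromosome 10 (128790910 to 128800824). In the last 500 bases of the transcripts, where 3′ libraries are read, no stretch of 31 bases was shared between any of the 8 genes (0 of 470 in Mmp3 and 0 of 470 in Mmp10, the closest relatives).

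With the 4 libraries summed, the 4 neighbours on chromosome 9 were highest in the same cell cluster, which Mmp2, Mmp14 and Mmp19 were not. That order did not hold in each library, as given with the cluster values. The bases before their start sites are therefore shown with those of Mmp14 for contrast. RefSeq promoters (build GRCm38.p6) were at hand for 5 of the 8 genes. The lines give the 120 bases before the start site on the plus strand, 5′ to 3′. Capitals mark matches to 3 motifs. TGANTCA is the element bound by AP-1, the dimer of Fos and Jun proteins. TATAAA is the core of the TATA box, which places the start of transcription. GGGCGG is the GC box, bound by factors such as Sp1. They were searched on both strands over the 250 bases before the start. No match in these 250 bases lay outside the printed 120.
Mmp3, chr9:7445702-7445821: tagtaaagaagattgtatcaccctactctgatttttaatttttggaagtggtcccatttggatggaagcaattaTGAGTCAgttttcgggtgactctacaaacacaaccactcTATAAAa
Mmp10, chr9:7502222-7502341: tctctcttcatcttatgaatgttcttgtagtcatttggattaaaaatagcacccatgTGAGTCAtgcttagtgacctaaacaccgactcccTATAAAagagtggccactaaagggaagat
Mmp13, chr9:7272394-7272513: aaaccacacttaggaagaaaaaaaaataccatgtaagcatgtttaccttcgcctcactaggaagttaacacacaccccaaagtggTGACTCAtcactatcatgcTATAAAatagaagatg
Mmp12, second start, chr9:7347254-7347373: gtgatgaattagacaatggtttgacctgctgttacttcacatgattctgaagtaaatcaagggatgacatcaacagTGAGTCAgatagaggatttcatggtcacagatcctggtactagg
Mmp14, chr14:54431478-54431597: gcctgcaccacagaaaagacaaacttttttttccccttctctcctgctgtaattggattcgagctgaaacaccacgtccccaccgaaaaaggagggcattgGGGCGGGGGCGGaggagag

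TGANTCA began 46 bases before the start of Mmp3, 63 before that of Mmp10, 35 before that of Mmp13 and 44 before the second start of Mmp12. It was in 6.75% of 32851 RefSeq promoters over the same 250 bases. The first start of Mmp12 and that of Mmp14 held none. TATAAA, in 12.4% of promoters, was in those of Mmp3, Mmp10 and Mmp13, and GGGCGG, in 32.7%, was there 2 times in that of Mmp14. These are matches of letters and show no binding.

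Some facts of the libraries touch every value. The 4 libraries, in that order, yielded 378, 778, 856 and 1834 cells (barcodes with 250 or more detected genes). They came from 1114210, 8943537, 9891258 and 16972879 UMIs in all. A UMI is 1 distinct transcript molecule counted. Control 1 lists only 444 barcodes, each with at least 502 UMIs, while 322 of the 856 control 2 cells had under 500. The cell count, median and unthinned shares of control 1 thus rest on a higher floor. A control cell had a median of 1061.5 (round 1) or 836 UMIs (round 2) and an injured cell one of 7033.5 or 4635, so a low gene was seen less easily in control cells. Of the 378 control 1 cells, 159 carried barcodes that also had similar or far more UMIs in injured 1. Inner annulus markers were all detected in every library (18 of 18) and outer annulus markers nearly so (18 or 19 of 19), while markers of pancreatic acinar cells, foreign to a disc, summed to 1713 and 1147 CPM (UMIs per 1000000 UMIs of the same cells) in the control libraries and to 22.9 and 3.31 in the injured ones.

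Mmp3 was the most counted of the 8, with 48662 of their 54868 UMIs. Its level over all cells was 3717 CPM in control 1, 4914 in injured 1, 480.3 in control 2 and 1005 in injured 2. Injured was above control within each round, 1.32-fold (95% counting interval 1.28 to 1.37) and 2.09-fold (1.96 to 2.23), but round 1 exceeded round 2 in both groups. The group ranges therefore overlapped, at 2099 ± 2289 CPM in control and 2960 ± 2765 in injured discs (SD, n = 2).

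Its close relative Mmp10 was at 13.2 CPM in control 1, 58.0 in injured 1, 1.85 in control 2 and 4.26 in injured 2. It was 4.41-fold higher in injured discs in round 1 (2.59 to 8.14) and 2.30-fold in round 2 (0.840 to 8.82), where the control library held 4 UMIs in 2 cells. The interval of round 2 includes no difference. Control 1 exceeded injured 2, so the groups overlapped.

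The elastase gene Mmp12 was at 172 CPM in control 1, 144 in injured 1, 2.31 in control 2 and 16.3 in injured 2. Its rounds went opposite ways, with injured over control ratios of 0.835 (0.712 to 0.983) and 7.04 (2.96 to 22.0). The value of control 2 rested on 5 UMIs. The collagenase gene Mmp13 was at 58.3, 57.4, 5.09 and 27.0 CPM in the same order of libraries. It differed by less than counting error in round 1 (ratio 0.985, 0.752 to 1.31) and was 5.30-fold higher in injured discs in round 2 (2.92 to 10.7). Osteoblasts are known to make Mmp13, and their 7 markers, led by Ibsp, summed to 716 CPM in control 1, 23.2 in injured 1, 49.5 in control 2 and 8.71 in injured 2, while Bglap was at 0 in both control libraries. Their part in the Mmp13 values was not tested.

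The gelatinase gene Mmp2 was at 52.6 CPM in control 1, 12.2 in injured 1, 61.1 in control 2 and 145 in injured 2. Both control libraries lay between the injured ones. The ratio of injured to control was 0.232 (0.163 to 0.331) in round 1 and 2.37 (1.98 to 2.85) in round 2. Its activator Mmp14 was at 29.1, 30.2, 45.3 and 131 CPM in the same order. It differed by less than counting error in round 1 (ratio 1.04, 0.707 to 1.56) and was 2.90-fold higher in injured discs in round 2 (2.36 to 3.59). Mmp19 was at 3.76, 2.08, 6.48 and 12.0 CPM, from 4, 14, 14 and 127 UMIs. It differed by less than counting error in round 1 (ratio 0.554, 0.174 to 2.31) and was 1.86-fold higher in injured discs in round 2 (1.07 to 3.49).

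Mmp9, the other gelatinase gene, was nearly absent from cells, with 1, 1, 0 and 5 UMIs in control 1, injured 1, control 2 and injured 2. The count of 0 allows up to 1.71 CPM by its exact interval. It did not pass edgeR's filter on low counts and so was left out of the edgeR tests that used this filter. None of the ratios of the other 7 genes changed side of 1 when the shared round 1 barcodes were left out. That of Mmp3 in round 1 was then 1.32, that of Mmp10 4.98, that of Mmp12 0.750 and that of Mmp2 0.245, and that of Mmp19 moved from 0.554 to 0.984 (0.226 to 8.92), with 2 UMIs left in control 1.

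**Figure D1:**
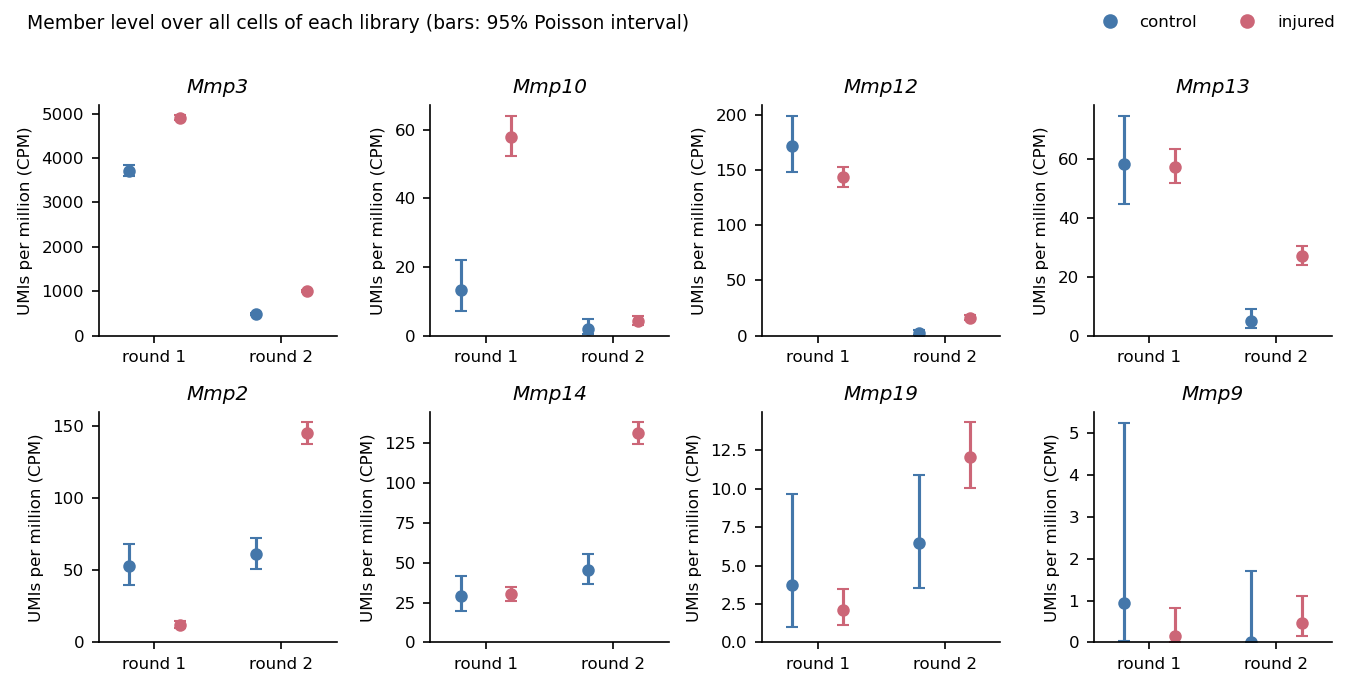
Level of each gene in CPM (y axis, linear, from 0) over all cells of the 4 libraries (x axis, by round); points are libraries and bars are exact 95% Poisson intervals, which cover counting error only. Mmp3, Mmp10, Mmp12 and Mmp13 are higher in round 1 than in round 2 in both groups, whereas Mmp2, Mmp14 and Mmp19 are highest in injured 2.

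Except for Mmp3 in injured 1, cells with a UMI of a given gene were a minority, and depth bears on every share. Mmp3 was seen in 145 of 378 (38.4%), 455 of 778 (58.5%), 99 of 856 (11.6%) and 667 of 1834 cells (36.4%) of control 1, injured 1, control 2 and injured 2. After each cell was thinned to 1000 UMIs, leaving out 182, 135, 459 and 243 shallower cells, the shares were 38.8%, 48.2%, 13.9% and 24.8%. The mean share was 26.3% ± 17.6 for control and 36.5% ± 16.5 for injured (SD, n = 2; exact two-sided permutation p = 0.67, where 0.33 is the smallest possible). Mmp10 was then seen in 1.53%, 3.58%, 0 of 397 and 0.440% of cells; the 0 allows a share of up to 0.925% by its exact interval. For the other 6 genes the exact two-sided permutation p lay between 0.33 and 1.0.

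The UMIs were concentrated in few cells. The 39 cells (1%) with most UMIs of a gene held 35.6% of all Mmp3 UMIs, 76.2% of those of Mmp10, 79.5% of those of Mmp12 and 72.3% of those of Mmp13. For Mmp14 that share was 23.6% and for Mmp2 39.3%. A single cell reached 1225 UMIs of Mmp3, and in 175 cells Mmp3 made up more than 1% of all UMIs, up to 5.85%.

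Cells were grouped into 17 clusters without the 8 genes among the variable genes, and the level of each gene across clusters is a description. Of the named classes, the cartilage-like one of the inner annulus comprised 4 clusters: cluster 1 (Saa1, Chil1 and Lcn2), cluster 2 (Il11, Cxcl2 and Ereg), cluster 4 (Grem1, Cnmd and Ucma) and cluster 8 (Ccl2, Ccl7, Cxcl1 and Nos2, with Mmp12 and Mmp3 also in its top 10). The fibroblast-like one of the outer annulus comprised cluster 7 (Aspn, Cthrc1 and Postn) and cluster 14 (Top2a, Mki67 and other genes of cell division). Cluster 3 (Angptl7, Myoc, Fmod and Comp) had markers of both and is called the mixed annulus cluster.

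The genes other than Mmp9, which had 7 UMIs in cells, differed in the class that held most of their UMIs. The inner class, with 58.1% of all UMIs, held 95.3% of the Mmp3 UMIs, 98.0% of those of Mmp10, 92.2% of those of Mmp12 and 74.3% of those of Mmp13. It held 1.11% of the Mmp2 UMIs, 2.52% of those of Mmp19 and 17.6% of those of Mmp14. The outer class, with 14.3% of all UMIs, held 82.9%, 71.7% and 66.7% of those of Mmp2, Mmp19 and Mmp14, and 15.9% of those of Mmp13. Both sums follow the libraries with most cells, and the outer class was nearly all from 1 library: it had 7 cells in control 1, 14 in injured 1, 6 in control 2 and 315 in injured 2.

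Mmp3 was at 8735 CPM in cluster 8, 3219 in cluster 2, 2009 in cluster 1 and 1709 in cluster 4, and at 1563 in the unnamed cluster 5 of mitochondrial transcripts, against 282 in cluster 7, 248 in cluster 14 and 197 in cluster 3. Cluster 8 alone held 48.6% of its UMIs with 203 cells. Over the libraries, cluster 8 ran from 3333 to 13526 CPM, cluster 2 from 2080 to 6700, cluster 1 from 1142 to 2066, cluster 4 from 328 to 4287 and cluster 5 from 673 to 2350. Cluster 2 therefore overlapped cluster 8 but lay just above cluster 1, and clusters 1, 4 and 5 overlapped each other. Cluster 4 also overlapped clusters 2 and 8, the outer cluster 7 (0 to 357) and the mixed cluster 3 (9.23 to 390). Cluster 5 overlapped cluster 2 and lay above cluster 7. A UMI of Mmp3 was seen in 82.8% of cluster 8 cells (median 11140 UMIs per cell), 80.2% of cluster 2 cells and 32.6% of cluster 4 cells. It was seen in 6.15% of macrophage-like cells (median 3323 UMIs) and 7.81% of endothelial cells, from 8 and 5 UMIs. Whether these cells made it was not tested.

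Mmp10 was at 95.7 CPM in cluster 8 and 37.9 in cluster 2, and at most 8.23 in any other cluster; macrophage-like cells had 0 of 130 with a UMI (exact 95% upper limit 2.80%). Mmp12 was at 239.7 CPM in cluster 8, 134.7 in cluster 4, 99.2 in cluster 5 and 57.0 in cluster 2. The macrophage-like cluster, with 130 cells of which 37 came from injured 1 and 89 from injured 2, had 11 UMIs of it (22.0 CPM, 3.85% of cells). Mmp13 was at 96.4 CPM in cluster 8, 77.2 in cluster 5, 59.0 in cluster 14, 46.8 in cluster 2, 34.1 in cluster 7, 27.3 in cluster 4 and 14.8 in cluster 1, so the outer clusters lay within the range of the inner ones. The UMIs of these 3 genes in cluster 8 came mostly from injured 1. In injured 2, Mmp13 was at 5.20 CPM in cluster 8 (1 UMI) and 74.1 in cluster 2, and control 1 had 1 UMI of it in cluster 8 and 57 in cluster 4. In injured 1 itself, Mmp12 was at 242 CPM in cluster 8 and 431 in cluster 4.

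Mmp2 was at 843 CPM in the unnamed cluster 6 (Ccl11 and Dpep1; median 385 UMIs per cell), 587 in cluster 7, 273 in cluster 14 and 130.0 in endothelial cells, and 5 UMIs in the 18 cells of the unnamed cluster 17 (Ctrb1 and Try5) made 316 CPM there. It was at most 3.69 in the inner clusters. Mmp14 was at 396 CPM in cluster 7, 376 in cluster 14, 316 in mural cells, which surround small vessels, and 277 in cluster 6. These sums over libraries hide different orders within them, since cluster 6 had 267 of its 319 cells from control 2 and cluster 7 had 247 of its 272 from injured 2. Mmp2 was at 968 CPM in cluster 7 and 657 in cluster 6 in control 1, and at 611 and 461 in injured 2, while cluster 6 was the higher in injured 1 and control 2. All 17 control 1 cells of cluster 6 had barcodes shared with injured 1, so that its control 1 values of Mmp2 and Mmp14 rest on shared barcodes alone. In injured 2, Mmp14 was at 702 CPM in mural cells (501 to 956) and 422 in cluster 7 (393 to 451). In the other 3 libraries Mmp14 was higher in cluster 6 than in cluster 7, from 3, 4 and 30 UMIs in cluster 6. In the inner clusters Mmp14 was at 18.3 to 31.9 CPM. Mmp19 followed at 89.9 CPM in cluster 6, 39.1 in cluster 7, 38.4 in cluster 14 and 34.1 in macrophage-like cells. Cluster 7 cells had a UMI of Mmp14 in 80.1% and of Mmp2 in 76.1% of cells, against 0.962% and 0 of 104 (exact 95% upper limit 3.48%) nucleus pulposus-like cells (median 1292 against 6620 UMIs in cluster 7).

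**Figure D2:**
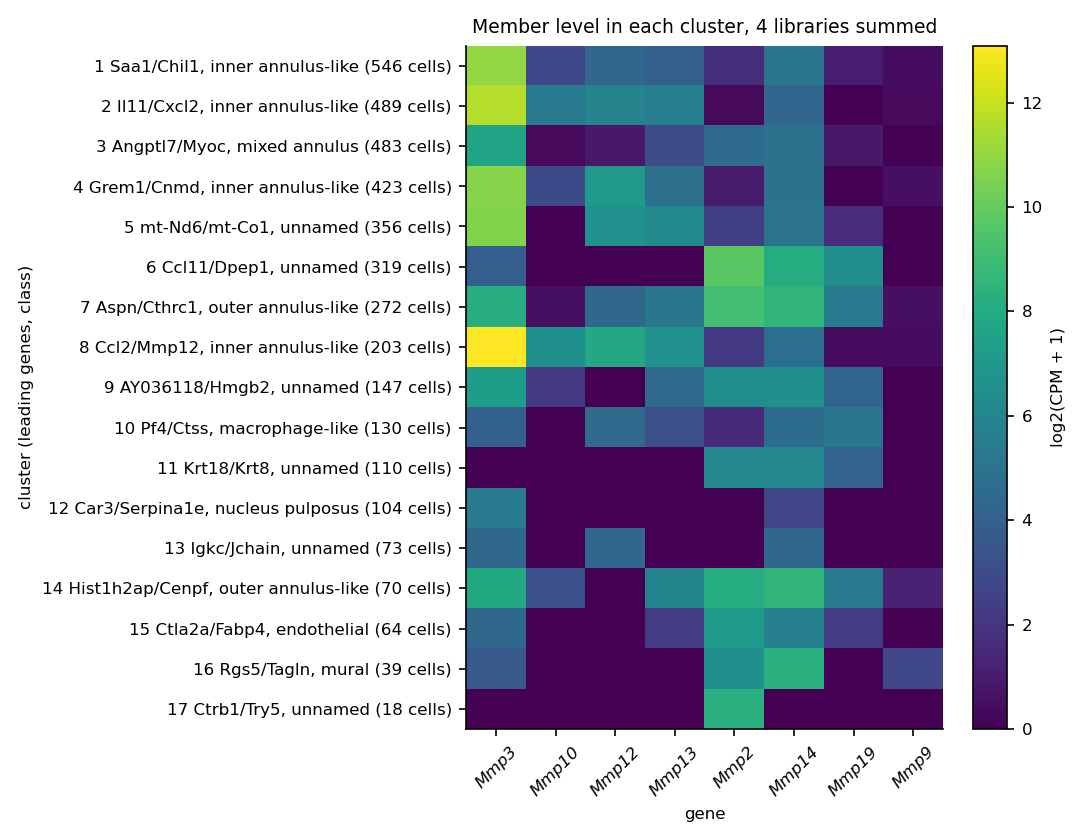
Heat map of log2(CPM + 1) (colour) for the 8 genes (x axis) in the 17 clusters (y axis, with leading genes, class and number of cells), 4 libraries summed. Mmp3, Mmp10, Mmp12 and Mmp13 have their highest level in cluster 8, Mmp2 and Mmp19 in cluster 6 and Mmp14 in cluster 7, orders of the sums that do not hold in every library.

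Genes were also set against each other cell by cell. In injured 1, among 643 cells with at least 1000 UMIs, Mmp10 was seen in 17.4% of cells with Mmp3 and 1.38% of cells without it, and Mmp12 in 18.1% and 2.76%. In injured 2, among 1591 cells, these shares were 4.1% and 0.104% for Mmp10, and 5.21% and 0.522% for Mmp12. Cells with Mmp3 were deeper, with a median of 9636 against 5982 UMIs in injured 1, which raises the chance of seeing any other gene. Mmp14 was seen in 77.0% of the cells with Mmp2 and 18.1% of those without it in injured 2 (median 7480 against 4924 UMIs). Mmp3 went the other way there, at 21% of the cells with Mmp2 and 44.3% of those without it, although the former were the deeper. Mmp13 in injured 2 was seen in 8.36% of cells with Mmp3 against 2.09% of those without it, and in 7.87% of cells with Mmp2 against 3.81%, in both cases with the deeper cells at the higher share. Mmp14 was seen in 49.3% of the cells with Mmp13 and 28.5% of those without it in injured 2 (median 7593 against 5189 UMIs).

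By the Pearson correlation of log2(CPM + 1) over the 16 clusters of at least 20 cells, among 10004 genes, Mmp3 was most like Ube2ql1 (0.93), Pax1 (0.92) and Foxf2 (0.91). Mmp10 was most like Lipg (0.83), Denr (0.83) and Dcun1d5 (0.80), Mmp12 like 1700047M11Rik (0.85), Pstpip2 (0.83) and Saa2 (0.82), and Mmp13 like Hmga2 (0.94), Lrp8 (0.92) and Fastkd1 (0.89). Mmp2 was most like Vegfd (0.94), Nid1 (0.93) and Lamb1 (0.92), Mmp14 like Loxl1 (0.92), Postn (0.91) and Adgra2 (0.91), and Mmp19 like Epn1 (0.90), Trip13 (0.845) and Anpep (0.83). The clusters share libraries and differ in depth, so these values only rank likeness.

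In round 1, Mmp3 was lower in injured than in control cells in 3 of the 4 inner clusters beyond counting error, while in cluster 1 the interval of the ratio included 1 (0.554, 0.295 to 1.17). In cluster 8 it was at 13526 CPM in 15 control cells and 9060 in 164 injured cells of round 1, and at 4051 in 2 control cells and 3333 in 22 injured cells of round 2. In cluster 2 it was at 6700 CPM (80 cells) and 3721 (228) in round 1 and at 3057 (7) and 2080 (174) in round 2. In each round and both clusters, injured was the lower of the 2 libraries, with ratios of 0.670 (counting interval 0.627 to 0.717) and 0.823 (0.633 to 1.09) in cluster 8 and of 0.555 (0.505 to 0.612) and 0.681 (0.597 to 0.779) in cluster 2. Of the control 1 cells of cluster 2, 77 had shared barcodes, and of those of cluster 8, 8 had; without them the round 1 ratios were 0.486 (0.386 to 0.621) from 3 control cells and 0.628 (0.587 to 0.673) from 7.

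In cluster 1, Mmp3 was at 2060 CPM in 7 control cells, all with shared barcodes, and 1142 in 31 injured cells of round 1, and at 2024 (22) and 2066 (486) in round 2. In cluster 4, the only inner cluster with no shared barcode and over 20 cells in every library, the 98 control cells of round 1 had 4287 CPM and the 35 injured cells 2483, while the 212 control cells of round 2 had 328 CPM and the 78 injured cells 512. Injured was the lower there in round 1 (ratio 0.579, 0.532 to 0.630) and the higher in round 2 (1.56, 1.27 to 1.90). In the outer cluster 7, Mmp3 had 0 UMIs in 7 control cells of round 1 (at most 105 CPM by the exact interval) and was at 357 CPM in 12 injured cells, 53 UMIs in 5 of them. The largest cluster of the inner class differed between libraries. It was cluster 4 in both control libraries, cluster 2 in injured 1 (49.8%) and cluster 1 in injured 2 (63.9%). Cluster 8 made up 7.5% of it in control 1, 35.8% in injured 1, 0.823% in control 2 and 2.89% in injured 2. Cluster 4 made up 49% and 87.2% of it in control and 7.64% and 10.3% in injured discs of rounds 1 and 2. Without shared barcodes, control 1 had 6.48% in cluster 8, 90.7% in cluster 4 and 2.78% in cluster 2, which had 40% with them. Each cluster is partly defined by genes that differ between the groups, so these shares are given beside the levels and not as a change in cell types.

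**Figure D3:**
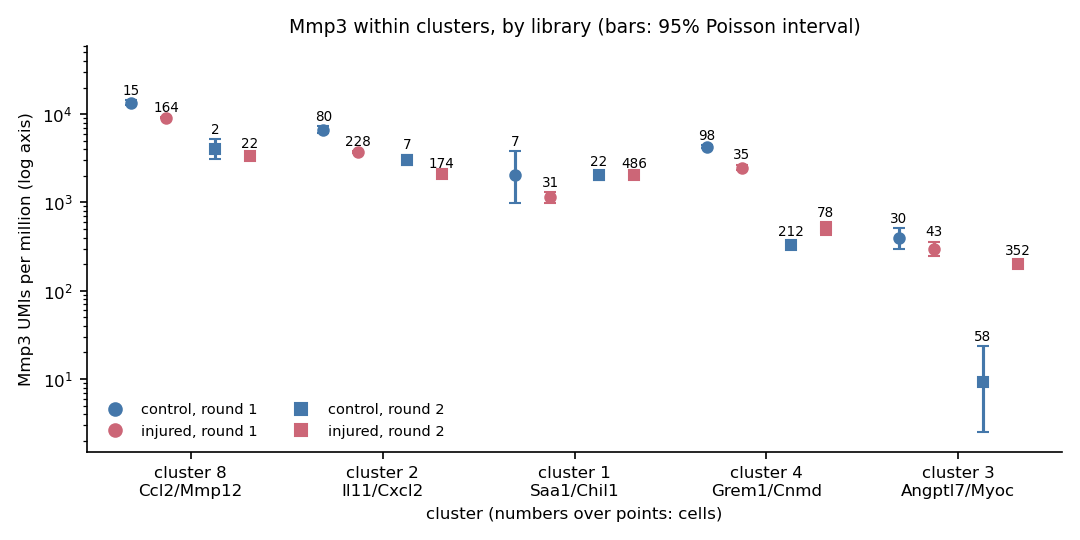
Mmp3 in CPM (y axis, log scale) in the 4 inner annulus-like clusters and the mixed annulus cluster (x axis), 1 point per library with its exact 95% Poisson interval and its number of cells above. In clusters 8 and 2 the injured library lies below the control library of its round, and in cluster 3 control 2 lies far below the other 3.

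The change after injury was tested on UMIs summed per library. Over all cells edgeR called none of the 7 genes that passed its filter on low counts (quasi-likelihood test, adjusted p under 0.05), against 0.117% of all 11990 genes tested. None had an unadjusted p under 0.05, and DESeq2 also called 0. The median log2 change was 0.53 over the 7 and -0.01 over all genes. Mmp10 had the largest, 2.25 ± 1.28 (SE; edgeR adjusted p = 0.763), followed by Mmp14 with 1.2 ± 0.68 (edgeR adjusted p = 0.763), and the other 5 lay between -0.09 (Mmp12) and 0.57 (Mmp2) with SEs of 0.89 to 1.46.

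Control and injured discs came from the same animals, so a fit with round as a block also applies. It called 1 of the 7, Mmp10, where it called 6.14% of all genes in either direction and 2.73% as higher in injured discs. Mmp10 was higher in injured discs by 1.91 ± 0.38 on the log2 scale (SE; edgeR adjusted p = 0.00924), higher in 2 of 2 rounds. Mmp14 changed by 0.99 ± 0.35 (edgeR adjusted p = 0.115), Mmp13 by 0.95 ± 0.43 (0.227) and Mmp3 by 0.79 ± 0.35 (0.211), none past the threshold. Without the shared round 1 barcodes the blocked value of Mmp10 was 1.99 ± 0.39, and it was no longer called (edgeR adjusted p = 0.0510). In the disc-cell classes together, with 6 of the 8 genes tested, edgeR called 0 of 6 (0.0269% of 11170 genes; 0 of 6 with an unadjusted p under 0.05, and 0 called by DESeq2). With round as a block it called 1 of 6, against 3.32% of all genes in either direction and 1.54% as higher. That was Mmp10 again, with 1.86 ± 0.40 (edgeR adjusted p = 0.0287), and 2.00 ± 0.41 (0.0655) without shared barcodes.

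Within the inner annulus-like class 5 of the genes passed the filter. Mmp10 was at 19.8 CPM in control 1, 71.0 in injured 1, 3.25 in control 2 and 8.44 in injured 2. Mmp3 was at 5368, 5949, 770 and 2025 CPM in the same order, Mmp12 at 258, 169, 3.25 and 25.3, and Mmp13 at 87.5, 62.6, 6.49 and 31.3. Each round had Mmp10 and Mmp3 higher in the injured library, while Mmp12 and Mmp13 were lower in round 1 and higher in round 2.

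edgeR called 0 of these 5 without the block, as it called 0.0% of 10327 genes (871 with an unadjusted p under 0.05, none of the 5), and DESeq2 called 0 of the 5. With round as a block it called 1 of 5, where it called 8.76% of all genes in either direction and 4.4% as higher. Mmp10 changed by 1.78 ± 0.42 (SE; edgeR adjusted p = 0.00092), and by 1.92 ± 0.43 (0.00526) without shared barcodes. Mmp3 changed by 0.88 ± 0.48 (edgeR adjusted p = 0.267), Mmp13 by 0.58 ± 0.33 (0.296), Mmp12 by 0.44 ± 0.33 (0.472) and Mmp14 by -0.03 ± 0.34 (0.979). The class shifted in makeup as given above, and the part of that shift in the Mmp10 value was not tested. In cluster 2, Mmp10 was at 45 CPM in control 1 (3 UMIs), 49.5 in injured 1 (127), 37.6 in control 2 (3) and 15.1 in injured 2 (20). In cluster 8 its 259 UMIs all came from injured 1 (106 CPM, 48 of 164 cells), and none from the 15, 2 and 22 cells of control 1, control 2 and injured 2.

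The mixed annulus cluster was compared by number, a comparison added after its cells had been seen, since the outer class had under 20 cells in 3 libraries. Mmp3 was at 390.5 CPM in control 1 (55 UMIs), 299 in injured 1 (112), 9.23 in control 2 (4) and 203 in injured 2 (533). Round 1 showed no difference beyond counting error (ratio 0.765, 0.549 to 1.08), and round 2 was 22.0-fold higher in injured cells (8.52 to 80.9), resting on the 4 UMIs of 2 control cells. Mmp2 was at 78.1, 8.0, 30.0 and 20.5 CPM in the same order, lower in injured cells in both rounds (ratios 0.102, 0.0184 to 0.388, and 0.684, 0.368 to 1.37), and 10 of the 11 UMIs of control 1 came from 1 cell.

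edgeR called 0 of the 3 genes tested in this cluster, against 0.479% of 4806 genes, 0.187% as lower in injured cells; Mmp2, at -1.32 ± 0.59, was the only 1 of the 3 with an unadjusted p under 0.05 (edgeR adjusted p = 0.386). DESeq2 called 0 and gave an adjusted p for Mmp3 only. With round as a block edgeR called 1 of 3, against 7.2% of all genes in either direction, 4.22% as higher and 2.98% as lower. Mmp3 was higher by 1.34 ± 0.36 (SE; edgeR adjusted p = 0.0074), although only 1 of the 2 rounds had it higher; leaving out control 2 turned the unblocked change from 0.52 to -0.54. Mmp2 changed by -1.18 ± 0.45 (edgeR adjusted p = 0.088) and Mmp14 by -0.12 ± 0.45 (0.918).

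In cluster 4, likewise compared after it was seen, Mmp12 was at 249 CPM in control 1, 431 in injured 1, 4.09 in control 2 and 55.7 in injured 2. These values came from 14, 5, 1 and 1 cells with a UMI. edgeR called 0 of the 3 genes tested there, as it called 0.0% of 5486 genes (97 with an unadjusted p under 0.05, none of the 3), and DESeq2 called 0. With round as a block it called 1 of 3, against 0.984% of all genes in either direction and 0.747% as higher. Mmp12 was higher by 1.5 ± 0.40 (SE; edgeR adjusted p = 0.0198), higher in 2 of 2 rounds, a value that in round 2 compares 1 cell with 1 cell. Mmp3 changed by -0.08 ± 0.38 and Mmp14 by -0.41 ± 0.55 (both edgeR adjusted p = 0.997).

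Whether the change differed between the inner class and the mixed annulus cluster was tested as an interaction, with library as a term. edgeR called 0 of 6 genes, against 0.115% of 8729; Mmp13 was the only 1 of the 6 with an unadjusted p under 0.05 (0.0437), and its 19 UMIs in injured 1 of the mixed cluster came from 1 cell. DESeq2 called 0 and gave an adjusted p for Mmp3 only.

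**Figure D4:**
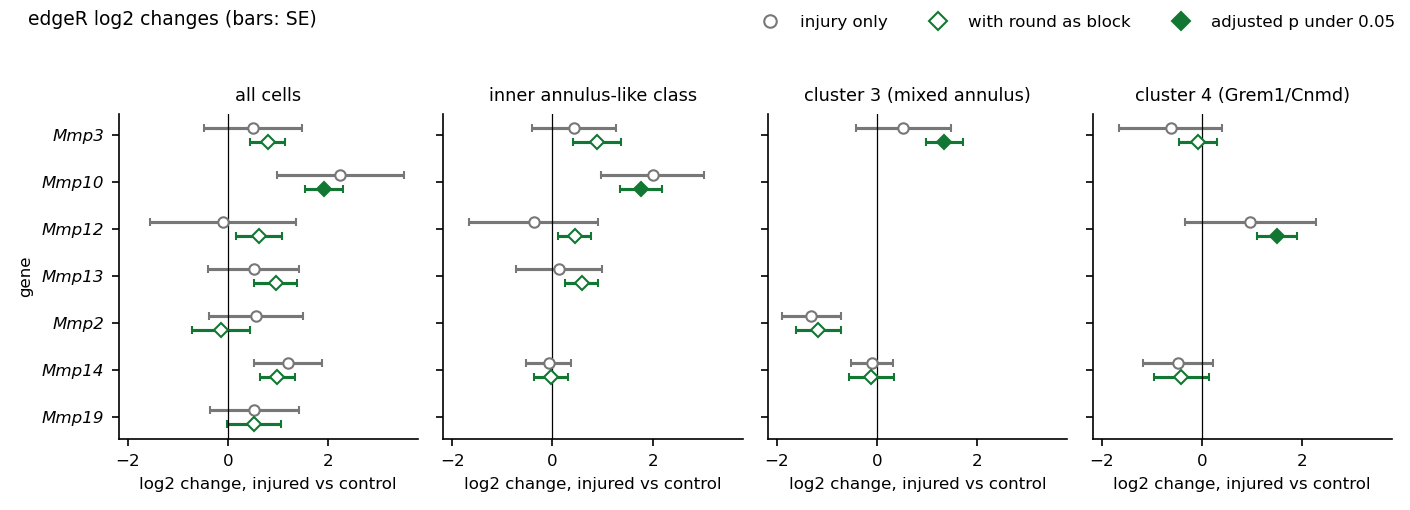
edgeR log2 changes of injured against control (x axis) for 7 genes (y axis; Mmp9 was not tested) in 4 sets of cells, without round (circles) and with round as a block (diamonds); bars are SEs and filled marks have an adjusted p under 0.05. Filled marks are Mmp10 over all cells and in the inner class, Mmp3 in cluster 3 and Mmp12 in cluster 4, all with the block.

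The genes that act with these enzymes were taken from lists of inhibitors, activators, inducers, transcription factors and substrates. Timp1, an inhibitor of most of these enzymes, was at 358 and 178 CPM in control rounds 1 and 2 against 1133 and 1511 in injured rounds 1 and 2. Timp2, which both inhibits and takes part in Mmp2 activation, was at 1299 and 1354 CPM in control against 467 and 514 in injured libraries, and Timp3, which binds to matrix, at 857 and 913 against 2639 and 1408. Timp4 was at 72.4 and 78.2 CPM in control against 10.1 and 8.52 in injured libraries. It was the only gene of the lists that edgeR called over all cells without the block, with -2.95 ± 0.36 (edgeR adjusted p = 0.0483). Within cluster 4 the change of Timp4 without the block was smaller, at -0.69 ± 0.46 (SE). This cluster made up 25.9% of the cells in control 1, 4.50% in injured 1, 24.8% in control 2 and 4.25% in injured 2. Its part in the Timp4 calls over all cells was not tested. For each of the 4 Timp genes the control and injured libraries did not overlap. The share of all genes without overlap was not computed, so this does not set them apart from other genes.

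With round as a block edgeR called 2.73% of all genes as higher and 3.41% as lower. Of the 6 inhibitors tested over all cells 1 rose and 2 fell: Timp1 rose by 2.44 ± 0.39 (edgeR adjusted p = 0.00212), Timp2 fell by 1.37 ± 0.29 (0.0143) and Timp4 fell by 2.96 ± 0.26 (1.3e-05), and Timp3 changed by 1.18 ± 0.33 (0.0535). Of 14 genes of activation, Pcsk5 rose by 1.40 ± 0.27 (0.00870) and Pcsk6 fell by 1.58 ± 0.24 (0.00155); both encode proprotein convertases, which remove propeptides. Of 14 inducers and receptors Tnfrsf1b, a receptor of tumour necrosis factor, rose and Il6 and the interleukin 1 receptor gene Il1r1 fell. Of 20 transcription factors 0 rose and 4 fell, which were Fos, Fosb, Jun and Junb, all of the AP-1 family. Fos fell by 1.66 ± 0.33 (0.00924), with 475 CPM in control 1, 103 in injured 1, 1470.1 in control 2 and 613 in injured 2, so that its groups overlapped. Of 22 substrates 8 rose and 0 fell, among them Tnc (6.00 ± 0.60), Col2a1 (2.25 ± 0.35) and Col1a1 (2.16 ± 0.40), with edgeR adjusted p of 4.5e-05, 0.00199 and 0.00604. All are adjusted p-values of edgeR over all genes tested. In the disc-cell classes together the same fit called Timp4, Tnc, Pcsk6, Timp1, Col2a1, Fbn1, Col1a1 and Fos first by p, with Fbn1 at 1.83 ± 0.34 (0.0175). The outer annulus-like class moved with these values, with 6 cells in control 2 and 315 in injured 2. Of the 1498 Tnc UMIs of the disc-cell classes in injured 2, the inner class held 48 and the mixed cluster 53, and of 3132 Fbn1 UMIs they held 187 and 239. Within the inner class Fbn1 was at 28.2 CPM in control 1, 35.1 in injured 1, 62.5 in control 2 and 41.5 in injured 2. Tnc was also called within the inner class (4.26 ± 0.96, edgeR adjusted p = 0.000421), from 1, 47, 0 and 48 UMIs. The part of the outer class in the calls of Tnc and Fbn1 was not tested.

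In the inner class the blocked fit called 4.4% of all genes as higher and 4.37% as lower. It called 2 inhibitors higher and 3 lower of 6, with Timp1 at 2.08 ± 0.38 (edgeR adjusted p = 5.7e-06), Timp3 at 1.46 ± 0.42 (0.00991), Timp2 at -1.54 ± 0.37 (0.000996) and Timp4 at -2.84 ± 0.31 (2.8e-17). Il1r1 was at -1.34 ± 0.29 (0.000207), Pcsk5 at 1.73 ± 0.31, Pcsk6 at -1.50 ± 0.29, Fos at -1.56 ± 0.35, Col2a1 at 2.25 ± 0.50 and Col1a1 at 1.77 ± 0.38. Of the 22 substrates there 7 rose and 1, the cartilage matrix gene Comp, fell. The 2 transcription factors that fell were Fos and Fosb, and the 2 inducers or receptors Il1r1 and Il6. Control 1 had 72.0 CPM of Il6 against 16.7 for injured 1, but round 2 had 17.9 and 18.9, so Il6 was lower in injured cells in 1 of 2 rounds. Cluster 4 held 49% and 87.2% of the class in control and 7.64% and 10.3% in injured discs. Within it Comp was higher in injured cells, at 2879 CPM against 2690 in round 1 and 2416 against 1487 in round 2. Timp4 changed there by -0.66 ± 0.35 with the block (edgeR adjusted p = 0.742) and Timp2 by -0.82 ± 0.36 (0.521). The part of this makeup in the values of the class was not tested.

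In the mixed annulus cluster Timp1 was called without the block, with 128 and 85.3 CPM in control against 896 and 1322 in injured rounds 1 and 2 (3.5 ± 0.46, edgeR adjusted p = 0.00928). Col2a1 was called too (2.83 ± 0.46, 0.0318). The block added, first by p, Fn1 (1.93 ± 0.39), Timp2 (-1.44 ± 0.34), Col1a1 (1.55 ± 0.38), Pcsk6 (-1.57 ± 0.38), Fos (-1.43 ± 0.35) and Plaur, the urokinase receptor (1.62 ± 0.42). Of the 6 inducers and receptors tested there Tlr2, Tnfrsf1a and Osmr were called as higher, against 4.22% of all genes. Tlr2 was higher in round 2 only, with 42.6 CPM in control 1, 26.7 in injured 1, 16.1 in control 2 and 103 in injured 2. In cluster 4 the block called Timp1 (2.04 ± 0.37, 1.8e-05) and the substrates Dcn (1.88 ± 0.40), Col2a1 (1.55 ± 0.38) and Hapln1 (1.40 ± 0.36), and no gene of the other lists. Timp1 was thus higher in injured cells, with the block, in each of the 5 sets of cells. These sets share the same 4 libraries and many of the same cells, so the calls are not independent.

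Barcodes under 250 genes, which hold free RNA, fragments and small or damaged cells, were looked at in 3 libraries. Control 1, which lists only 444 barcodes, had 50017 UMIs in such barcodes and none of the 8 genes among them. Mmp9 had 192 UMIs there in injured 1, in 185 barcodes, 41 in control 2 and 28 in injured 2, that is 99.5%, 100% and 84.8% of its UMIs in these libraries. Outside cells this made 86.6, 5.30 and 4.37 CPM. Mmp8, the neutrophil collagenase and not one of the 8 genes, had the same order, at 127, 5.30 and 2.49 CPM outside cells against 2 UMIs in cells.

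Neutrophils are known to hold both, and the 8 neutrophil markers were all detected outside cells in the 3 libraries. In the same order they summed to 43821, 2768 and 1887 CPM, against 50.5, 7.87 and 21 CPM in cells. S100a8 alone had 51645 UMIs outside cells in injured 1. Osteoclasts are another known source of Mmp9, and their 7 markers summed to 58.2, 26.4 and 37.7 CPM outside cells against 74.5, 74.5 and 137 in cells. Of these, Acp5 was higher outside cells, at 37.0, 8.80 and 7.33 CPM against 0.892, 1.39 and 1.99 in cells, Ctsk was lower outside, and Oscar had 0 UMIs outside cells. Macrophages can also make Mmp9, and their 13 markers, all detected, summed to 3236, 385 and 566 CPM outside cells against 450.3, 269 and 516 in cells, with Lyz2, which neutrophils share, at 1806 CPM outside and 104 in cells of injured 1. The part of these cell types in the Mmp9 UMIs was not tested.

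The other genes differed in how much lay outside cells. Mmp13 was at 13.6 CPM outside against 5.09 in cells of control 2, and at 60.5 against 57.4 in injured 1. In injured 2 it was higher in cells, at 17.0 CPM outside against 27.0. The 7 osteoblast markers were all detected outside cells and summed there to 583 CPM in injured 1, 70.6 in control 2 and 30.1 in injured 2, each above the level in cells, with 393 UMIs of Bglap outside cells of injured 1 and 2 in them. Mmp2 was at 109 CPM outside against 12.2 in cells of injured 1, with 74.7% of its UMIs outside, and at 49.4 against 145 in injured 2. The 19 outer annulus markers, all detected, summed to 5696 CPM outside against 19173 in cells of injured 1, although Lum (200.3 against 30.3), Dpt (64.1 against 12.5), Pi16 (59.1 against 5.95) and Postn (40.2 against 12.2) were higher outside. The part of these cell types in the Mmp13 and Mmp2 UMIs outside cells was not tested. Mmp14 was at 42.4 CPM outside against 30.2 in cells of injured 1, Mmp19 at 9.02 against 2.08 there, and Mmp12 at 2.85 against 2.31 in control 2. Elsewhere each was higher in cells. In control 2 and injured 2, Mmp14 was at 12.7 and 24.9 CPM outside against 45.3 and 131 in cells. Mmp19 was at 2.59 and 4.99 against 6.48 and 12.0 in the same libraries. Mmp12 was at 17.6 against 144 in injured 1 and at 5.77 against 16.3 in injured 2. Mmp3 had 2.73% of its UMIs outside cells in injured 1 (418 CPM), 21.5% in control 2 (36.7) and 13.0% in injured 2 (247). Of Mmp10, 8, 1 and 3 UMIs lay outside cells.

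**Figure D5:**
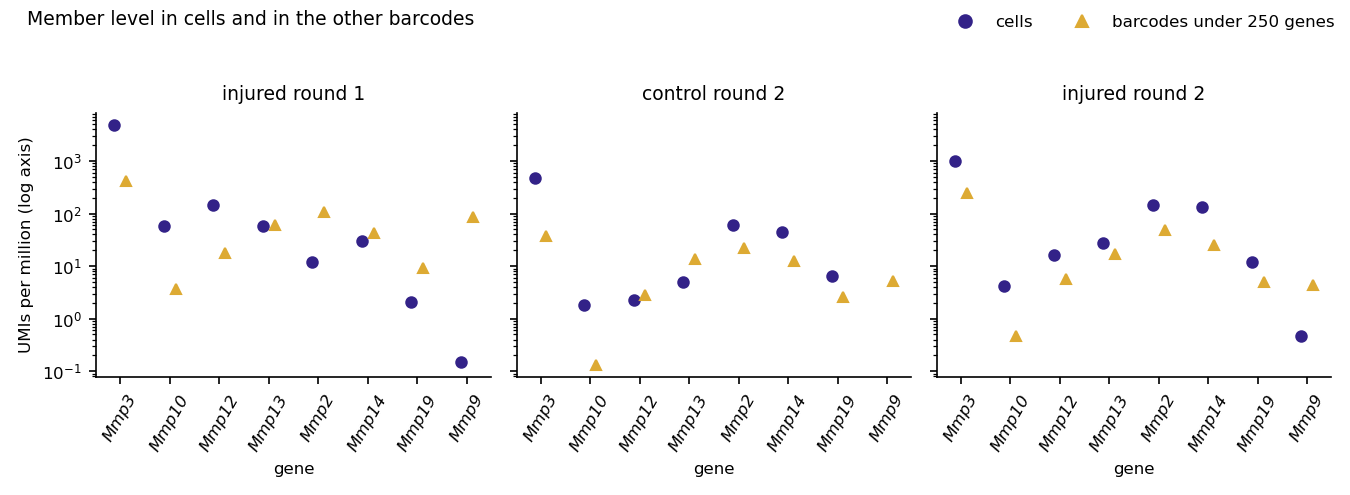
Level of each gene (x axis) in CPM (y axis, log scale) in cells (circles) and in barcodes under 250 genes (triangles) of 3 libraries; Mmp9 in cells of control 2 was 0 and is not drawn. Mmp9 lies far higher outside cells than in them, and Mmp3 higher in cells.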

How the data were processed

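The authors deposited raw UMI counts per gene and barcode for 4 libraries, aligned to mm10 and counted with Cell Ranger, as the labels state. The file headers give version 6.0.0 for control 1 and 4 for the others. Nothing in these counts was normalized. Following the series text, a barcode counted as a cell from 250 detected genes on, and clustering used genes of 5 or more cells; doublets were not removed. CPM is UMIs per 1000000 UMIs of the same cells. Clusters came from scanpy 1.11.5 and leidenalg 0.10.2 (2000 variable genes, 30 components, 20 neighbours, resolution 1). A cluster was named from at least 3 markers seen in 25% of its cells at 1.2 times the level of other cells; rebuilt names can differ from the authors' own. The outer annulus-like class had under 20 cells in 3 libraries, so its planned test was not run, and the interaction used the mixed annulus cluster in its place.

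UMIs summed per library were tested with the quasi-likelihood test of edgeR 4.0.16 (R 4.3.3, its default filter on low counts, TMM, Benjamini-Hochberg adjustment over all genes tested), with injury as the only term; DESeq2 1.42.0 was an alternative. The script was tested on simulated data. Rounds pair the samples, since control and injured discs came from the same animals per the labels, and same-round libraries deviated together (Pearson correlation 0.51 over 11990 genes); the fit with round as a block leaves 1 residual degree of freedom per gene. Libraries are pools of animals, so p-values refer to pools, 2 per group. With so few, the blocked p-values rest mostly on a spread shared over genes and little on a gene's own spread between pools. A small one is therefore no measure of how alike the 2 rounds were. Shares of cells, thinned to 1000 UMIs each, were tested by exact two-sided permutation over libraries. Intervals are exact (Poisson or binomial, 95%) and cover counting error only. All 8 genes, at most 8 called genes of the lists per comparison by smallest p, Timp1 to Timp3, and the 3 genes most like each are named; Mmp8, Mmp1b, Il6, Tnfrsf1b, Fosb, Jun, Junb, Comp, Tnc in the inner class, Acp5, Ctsk, Oscar, Tlr2, Tnfrsf1a, Osmr and the markers fall outside that rule and were named after their values were seen. Of the other 14 Mmp genes listed, 12 had UMIs in cells, 564 in all. The members and lists were chosen with earlier results of these data known.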

Additional observations from a re-analysis of the deposited data

Results flagged for a closer look

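Ratios of injured to control that lay on opposite sides of 1 in the 2 rounds, each beyond its counting interval, were found for 2 of the 8 genes over all cells. Mmp2 had 0.232 in round 1 and 2.37 in round 2, and Mmp12 had 0.835 and 7.04. Each round has 1 pair of libraries, so the difference between rounds was not tested. Outer annulus-like cells, which held most Mmp2 UMIs of the 4 libraries summed, numbered 7 of 378 in control 1, 14 of 778 in injured 1, 6 of 856 in control 2 and 315 of 1834 in injured 2, and their part in the ratios was not tested. In control 2 they held 12 of 132 Mmp2 UMIs, while the 267 cells of the unnamed cluster 6 held 99, and in injured 1 they held 32 of 82. In control 1 they held 34 of 56, and in injured 2 their cluster 7 alone held 1214 of 1528.

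Levels outside cells exceeded those of control 2, with intervals that did not overlap, for all 8 genes in injured 1. In CPM these were 109 (Mmp2), 418 (Mmp3), 86.6 (Mmp9), 3.61 (Mmp10), 17.6 (Mmp12), 60.5 (Mmp13), 42.4 (Mmp14) and 9.02 (Mmp19). In injured 2 they did so for 3, with 49.4 for Mmp2, 247 for Mmp3 and 24.9 for Mmp14. The share of all genes that did so was not computed, so these counts do not set the 8 genes apart. Marker sums outside cells differed too. Those of neutrophils were at 43821 CPM in injured 1 against 2768 in control 2, and those of the outer annulus at 5696 against 2332.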

How the results depend on the processing

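Calls rested on the fit, the round and single libraries. Of all genes, edgeR without the block called 14 over all cells, 3 in the disc-cell classes together, 0 in the inner class, 23 in the mixed annulus cluster, 0 in cluster 4 and 10 in the interaction. With round as a replicate block the counts were 736, 371, 905, 346 and 54, with 1 of the 8 genes called in each of these 5 sets, and the block changed no other call of theirs. The block without shared round 1 barcodes gave 242, 217, 787, 350 and 54, with 1 of the 8 called in each of the inner class, the mixed cluster and cluster 4. DESeq2 gave 169, 120, 114 and 68 in the first 4 sets. With no filter on low counts there were 378, 289, 214, 131, 17 and 22 calls, with 1, 2, 1, 1 and 1 of the 8 genes in the first 5. Without shared barcodes but with no block there were 3 over all cells, 14 in the inner class and 6 in the interaction. Cells of at least 500 detected genes gave 0 over all cells, 0 in the disc-cell classes and 17 in the inner class, and cells under 10% mitochondrial UMIs gave 0 and 12 in the last 2. Clusters made with the 8 genes allowed gave 14 in the mixed cluster and called 1 of the 8 in the interaction, and Leiden resolution 0.5 gave 32 in the interaction.

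Leaving out 1 library at a time gave 126 to 273 calls over all cells, 0 to 131 in the disc-cell classes, 76 to 265 in the inner class, 0 to 135 in the mixed cluster, 0 to 19 in cluster 4 and 15 to 54 in the interaction; of the 8 genes it called 0 to 4, 0 to 2, 0 to 4, 0 to 1, 0 to 1 and 0 to 1. A lone library is assumed there to vary like the other group. Over all cells Mmp3, Mmp10, Mmp12 and Mmp13 were called without control 1, and Mmp2 (lower) and Mmp10 without injured 2.

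Directions turned as follows on the log2 scale. With the block, Mmp2 over all cells was -0.13 and Mmp12 0.63, and Mmp12 was 0.58 in the disc-cell classes and 0.44 in the inner class. With the block and without shared barcodes these were -0.11, 0.58, 0.53 and 0.37. With no filter Mmp12 over all cells was 0.036, Mmp14 in the inner class 0.041 and Mmp14 in the mixed cluster 0.052. With DESeq2 Mmp14 in the mixed cluster was 0.0205, and in the interaction Mmp10 was -2.12 and Mmp12 -0.69. At Leiden resolution 0.5 Mmp3 in the mixed cluster was -0.36, and in the interaction Mmp12 was -1.49 and Mmp14 -0.0635. With the 8 genes allowed Mmp12 in cluster 4 was -0.79, and in the interaction Mmp12 was -3.96 and Mmp14 -0.18. The cause was not tested.

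With 1 library left out, the changes over all cells ran from -2.18 to 1.46 (Mmp2), -0.97 to 2.7 (Mmp3), -0.56 to 4.11 (Mmp10), -2.29 to 5.16 (Mmp12), -0.42 to 3.13 (Mmp13), -0.28 to 1.92 (Mmp14) and -1.29 to 1.29 (Mmp19). In the disc-cell classes they ran from -2.03 to 2.59 (Mmp2), -1.05 to 2.71 (Mmp3), -0.67 to 4.03 (Mmp10), -2.48 to 5.32 (Mmp12), -0.54 to 3.39 (Mmp13) and -0.12 to 2.2 (Mmp14). In the inner class they ran from -0.46 to 2.53 (Mmp3), -0.17 to 3.75 (Mmp10), -2.21 to 5.04 (Mmp12), -0.83 to 3.01 (Mmp13) and -0.42 to 0.51 (Mmp14). In the mixed cluster they ran from -0.54 to 4.85 (Mmp3) and -0.14 to 0.23 (Mmp14), and in cluster 4 from -2.07 to 2.13 (Mmp3), -1.05 to 5.75 (Mmp12) and -1.07 to 0.026 (Mmp14). In the interaction they ran from -3.29 to 3.13 (Mmp10), -1.37 to 6.88 (Mmp12) and -0.26 to 0.54 (Mmp14). For the thinned shares, injured minus control in percentage points, they ran from -1.28 to 6.45 (Mmp2), -2.26 to 22.7 (Mmp3), -0.33 to 2.81 (Mmp10), -2.91 to 2.96 (Mmp12), -0.78 to 1.78 (Mmp13), -0.75 to 5.95 (Mmp14) and -0.23 to 0.62 (Mmp19). The share of Mmp12 was -0.42 points without shared barcodes, and that of Mmp19 -0.23 after thinning to 500 UMIs. Depth limits several genes, with 1, 14 and 4 UMIs of Mmp9, Mmp10 and Mmp19 in control 1 and 0, 4, 5 and 11 of Mmp9, Mmp10, Mmp12 and Mmp13 in control 2. The outer class could not be tested with under 20 cells in 3 libraries.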
